A study of Homo sapiens with 5 samples.

Results

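HuR, encoded by ELAVL1, and 8 further genes whose proteins bind AU-rich or related U-rich elements in mRNA were followed across 5 total RNA libraries of WI-38 cells. The 9 genes were chosen by name: ELAVL1, ZFP36, ZFP36L1, ZFP36L2, TIA1, TIAL1, KHSRP, CELF1 and PUM2. They are 9 of 48857 gene symbols with a transcript row, and 8 of them are among the 13908 genes kept for ratios. CELF1 was left out of the ratios because 15 of its transcript rows carried a failed estimate at PDL 15.

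WI-38 is an established line of human diploid lung fibroblasts with a limited number of divisions, counted as population doubling level (PDL). Untransfected cells at PDL 15 and at PDL 55 gave 1 library each. The other 3 libraries, also 1 each, came from transfected cells at PDL 15 that received an siRNA to HuR, an siRNA to AUF1, or the control siRNA. AUF1 is the protein of HNRNPD. Since each group is 1 library, no difference below was tested and none has a replicate check. In such bulk RNA, fewer cells with a transcript and less of it per cell cannot be told apart. The 95% bounds printed with each value are those the authors deposited, summed over the transcripts of a gene, and cover the error of estimation within 1 library. Where a gene has several transcripts, the summed bounds are not themselves a 95% interval of its sum.

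AU-rich elements are stretches of adenine and uridine in 3' untranslated regions (3' UTRs) that set how long an mRNA lasts and how often it is translated. HuR is mostly known for stabilising the mRNAs it binds, whereas the ZFP36 family and KHSRP bring deadenylases and the exosome to them. TIA1 and TIAL1 hold back translation under stress, CELF1 binds GU-rich elements, and PUM2 binds Pumilio elements and recruits the deadenylase complex.

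Such elements were found in the annotated 3' UTRs of all these genes but KHSRP. In the longest annotated 3' UTR of each gene (GENCODE release 29, GRCh38), the sense strand was searched for the pentamer ATTTA, the nonamer TTATTTATT, the heptamer TTTATTT, an unbroken GU-rich element and the Pumilio element TGTANATA, where N is any base. Matches were allowed to overlap, and each nonamer also contains a pentamer. Of the transcripts searched, those of ELAVL1 and ZFP36L2 had an FPKM above 0 in every library, and that of TIAL1 only at PDL 15. The other transcripts searched had no value above 0. The matches are thus those of the annotation, and their presence in the mRNAs of these libraries was not tested. The nonamer, a strong site for the ZFP36 family, was present in 4 of the 9 genes: ELAVL1 and the 3 ZFP36 family members. Of 19115 protein-coding genes with a 3' UTR, 8.21% held it. Among genes with a 3' UTR of like length (0.8 to 1.25 times), the share was 21.3% for ELAVL1, 4.82% for ZFP36, 13.7% for ZFP36L1 and 8.98% for ZFP36L2. The first match after the stop codon is shown for each of the 4, 5' to 3' with the nonamer in capitals. It is shown because the annotated mRNAs of HuR and the ZFP36 proteins hold the same letters.
ELAVL1: atttatgtatTTATTTATTgaagtgtgaaa
ZFP36: tatgacgactTTATTTATTctaatatgatt
ZFP36L1: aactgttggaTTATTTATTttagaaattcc
ZFP36L2: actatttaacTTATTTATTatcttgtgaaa
These lie at chr19:7961827-7961856 on the minus strand for ELAVL1, chr19:39409196-39409225 on the plus strand for ZFP36, chr14:68788076-68788105 on the minus strand for ZFP36L1 and chr2:43223447-43223476 on the minus strand for ZFP36L2. The match begins 1637 bases after the stop codon in ELAVL1, 507 in ZFP36, 2393 in ZFP36L1 and 853 in ZFP36L2.

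Pumilio elements were found in 2 of the 9 genes, PUM2 itself and TIAL1, with 2 matches each. Of all 3' UTRs, 25.2% held this element, and of those of like length 43.5% did for PUM2 and 51.8% for TIAL1. The first match in each is shown with the element in capitals, since PUM2 is the protein that binds it.
PUM2: gtttatagagaTGTATATAgaattatagtc
TIAL1: atgatacatatTGTAAATAttcaataacta
They lie at chr2:20251142-20251171 and chr10:119574859-119574888, both on the minus strand. No match to the GU-rich element was found in the 9 windows, and 1.85% of all 3' UTRs held it.

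The pentamer is common: 67.6% of all 3' UTRs held it, as did 8 of the 9 genes. ZFP36 had 5 pentamers in 713 bases, against a median of 1 in 2239 genes with a 3' UTR of like length, of which 5.63% had as many. ELAVL1 had 13 in 4904 bases, against a median of 11. TIA1 also had 13, in 3275 bases, against a median of 7. KHSRP had none in 764 bases. ELAVL1 also held 8 U-rich heptamers, a count that 4.57% of genes of like length reached.

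The libraries differed in depth. Coverage per unit of FPKM (a fragment rate scaled by transcript length and library size), which scales with depth, was 0.300 with control siRNA and 1.14 to 1.29 in the others, so the control library was 3.81 to 4.30 times shallower than these. All 13 fibroblast markers had a mean FPKM of at least 1, with a summed FPKM of 2966 to 12682. VIM was nevertheless listed at 0 with control siRNA, COL1A1 with HuR siRNA, and PDGFRA at PDL 15 and with control siRNA. Of the epithelial markers 1 of 9 reached that mean, and KRT5, KRT14 and NKX2-1 were at 0 in every library. The endothelial list reached it with 1 of 5 genes that had rows, the blood list with 2 of 8 and the smooth muscle list with 2 of 4. The smooth muscle sum ranged from 10.4 to 129 and was highest with AUF1 and HuR siRNA, mainly through SMTN. HNRNPD, the target of the AUF1 siRNA, had an FPKM of 25.2 with AUF1 siRNA (20.2 to 30.2) and 61.2 with control siRNA (48.0 to 74.4).

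Ratios are given as log2((FPKM + 1)/(FPKM + 1)) minus the median of that ratio over all genes kept. That median, as deposited, was -0.32 for PDL 55 against PDL 15 and -0.44 for the control siRNA library against PDL 15. Against the control siRNA library it was 0.23 with AUF1 siRNA and 0.35 with HuR siRNA. The comparison of control siRNA with PDL 15 shows what transfection and library differences give without a targeted gene. The control siRNA library is the reference of both siRNA comparisons and the first library of its own comparison with PDL 15, so a high or low value in it enters these with opposite sign. The PDL 15 library is likewise shared by the comparisons with PDL 55 and with control siRNA.

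ELAVL1 (ENSG00000066044; hg19 chromosome 19, 8023458 to 8070529, minus strand) had an FPKM of 17.6 at PDL 15 (15.7 to 19.5) and 12.2 at PDL 55 (11.0 to 13.4). Its FPKM was 11.8 with control siRNA (9.38 to 14.1), 17.7 with AUF1 siRNA (16.3 to 19.2) and 14.8 with HuR siRNA (12.9 to 16.7). The targeted gene was thus not lowest in the HuR siRNA library, and each library overlapped its neighbours in the order of levels. Farther apart in that order, PDL 15 did not overlap PDL 55 or control siRNA, nor did AUF1 siRNA overlap control siRNA. The ELAVL1 ratio to PDL 15 was -0.17 at PDL 55 (-0.45 to 0.11) and -0.10 with control siRNA (-0.54 to 0.30). For AUF1 siRNA against control siRNA it was 0.32 (-0.05 to 0.73). Against control siRNA, the ELAVL1 ratio with HuR siRNA was -0.04 (bounds -0.47 to 0.42), and it was 0.31 as deposited.

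This check of the siRNA target turns on 1 assembled transcript. In the HuR siRNA library, an unspliced block of 1475 nt inside the ELAVL1 span (hg19 chromosome 19, 8052941 to 8054415) had an FPKM of 5.11, which was 34.5% of the gene's total there. No such block was assembled in the other libraries, except 1 of 691 nt at another place at PDL 15 with 0.955. The long annotated form of ELAVL1 has 6015 nt, of which 5229 nt are its last exon. That exon lies at the end of the gene that starts at 8023458, away from the block of 1475 nt. The other exons of this form together are shorter than that block, and the short annotated form has only 1473 nt in all. The block of 1475 nt thus cannot lie wholly within the exons of either form. Whether it belongs to an unannotated mature mRNA was not tested, nor was the place of the block of 691 nt. On annotated transcripts alone, ELAVL1 had 9.72 with HuR siRNA (8.59 to 10.8), which was then the lowest of the 5 libraries. PDL 15 had 16.7 (15.2 to 18.1) by that sum, with no overlap, whereas the control siRNA interval still overlapped. The ratio against control siRNA was then -0.55, and -0.56 when assembled transcripts entered only through a shared gene identifier, a rule added after the values were seen. By neither sum did ELAVL1 reach a 2-fold difference. The HuR siRNA library is therefore named by its label in what follows, and its directions are those of the library so labelled.

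2 annotated forms of ELAVL1 had values. FPKM is per length, so the forms can be set side by side. The short form ENST00000351593 (1473 nt) had 13.5 at PDL 15, 10.0 at PDL 55, 10.1 with control siRNA, 14.6 with AUF1 siRNA and 8.09 with HuR siRNA. The long form ENST00000407627 (6057 nt) had 3.14, 2.19, 1.69, 3.16 and 1.63 in the same order. The short form was the more abundant in every library, at 54.5% to 85.6% of the gene's FPKM, and both forms were lowest with HuR siRNA. Intervals for HuR siRNA overlapped those for control siRNA in both forms (7.18 to 8.99 against 8.11 to 12.0, and 1.41 to 1.86 against 1.27 to 2.11). The short form ends 4585 bases before the long one, so that all 13 pentamers and the nonamer shown above lie beyond its end.

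**Figure D1:**
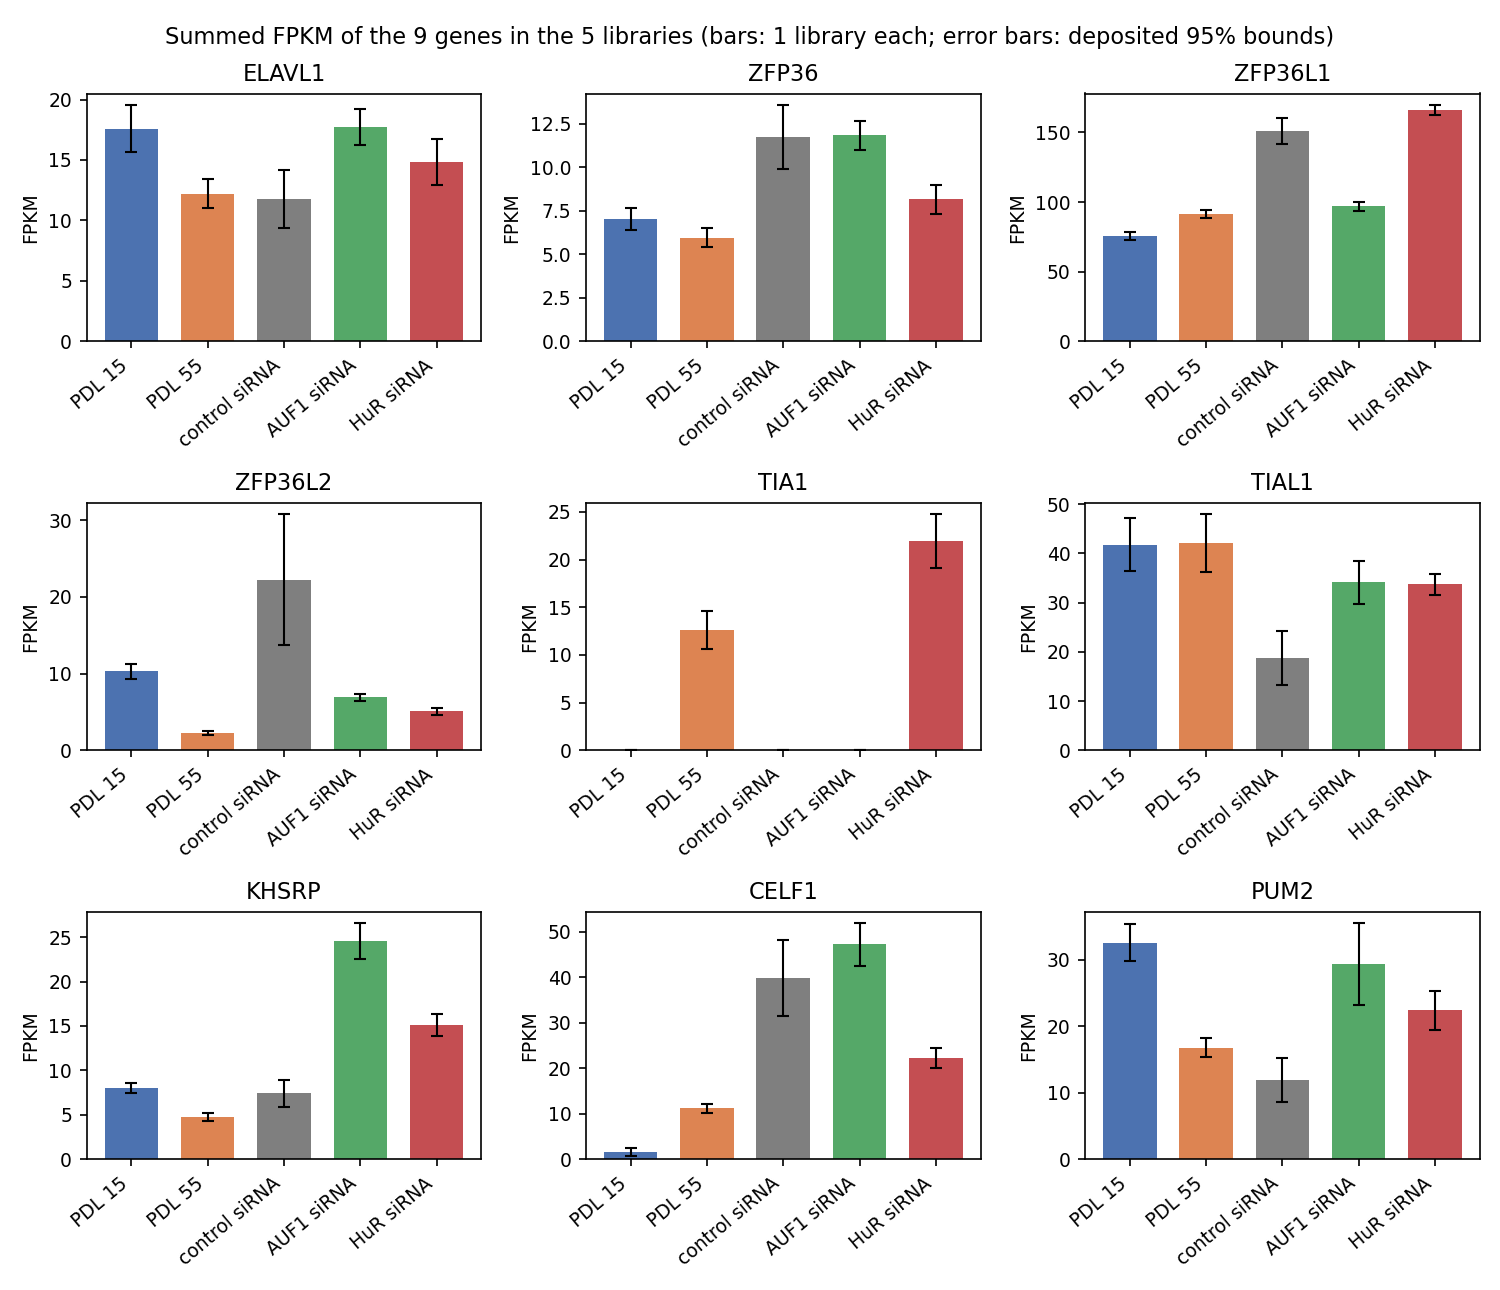
Summed FPKM (y axis, from 0) of each of the 9 genes in the 5 libraries; a bar is 1 library and the error bars are the deposited 95% bounds, summed per gene. ELAVL1 stayed between 11.8 and 17.7, while ZFP36L2 ranged from 2.30 to 22.3 and TIA1 was listed at 0 in 3 libraries.

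Among the ZFP36 family, whose zinc finger proteins speed the decay of AU-rich mRNAs, ZFP36 itself (tristetraprolin, ENSG00000128016; hg19 chromosome 19, 39897487 to 39900045, plus strand) had 7.04 at PDL 15 (6.41 to 7.66) and 5.96 at PDL 55 (5.39 to 6.52). It had 11.7 with control siRNA (9.90 to 13.6), 11.8 with AUF1 siRNA (11.0 to 12.6) and 8.15 with HuR siRNA (7.33 to 8.96). The control and AUF1 siRNA libraries were above the other three. The ratio was 1.10 for control siRNA against PDL 15 (0.77 to 1.41), 0.66 as deposited, and -0.83 for HuR against control siRNA (-1.15 to -0.48). Against PDL 15 the HuR siRNA ratio was 0.26, the opposite sign. In the HuR siRNA library an assembled row of no assigned gene (3727 nt, FPKM 8.47) covered all of ZFP36 and reached beyond it. Added to ZFP36 it would give 16.6, above the control library, so the lower value with HuR siRNA rests on how that row is assigned.

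ZFP36L1 (ENSG00000185650; hg19 chromosome 14, 69254375 to 69261453, minus strand) is a family member with many targets in growth control. It was the most abundant of the 9 genes, with 75.6 at PDL 15 (72.8 to 78.4), 91.6 at PDL 55 (88.5 to 94.6) and 151 with control siRNA (142 to 160.2). AUF1 siRNA gave 96.9 (93.6 to 100.1) and HuR siRNA gave 166 (162 to 169.5). Control and HuR siRNA stood apart as the higher libraries, and PDL 15 was lowest. Against PDL 15 the ratio was 0.60 at PDL 55 and 1.43 with control siRNA (0.99 as deposited). Against control siRNA it was -0.87 with AUF1 and -0.21 with HuR siRNA. Against PDL 15, HuR siRNA gave 1.20.

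Between 88.7% and 100% of the ZFP36L1 FPKM came from the short form ENST00000435246 (1236 nt). This form carried the flag LOWDATA in all 5 libraries, with which Cufflinks marks loci too complex or too thinly covered for a sure estimate. The long form ENST00000439696 (3022 nt) had 4.60 at PDL 15, 5.65 at PDL 55, 17.0 with control siRNA, 6.75 with AUF1 siRNA and was listed at 0 with HuR siRNA. Thus the library with the highest sum had the long form at 0. The short form ends 1734 bases before the long one, and all 8 pentamers and the nonamer of the long form lie beyond that end.

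ZFP36L2 (ENSG00000152518; hg19 chromosome 2, 43449541 to 43453748, minus strand) is the third family member, known from blood cell development. It had 10.3 at PDL 15 (9.36 to 11.3), 2.30 at PDL 55 (2.05 to 2.54), 22.3 with control siRNA (13.7 to 30.8), 6.92 with AUF1 siRNA (6.45 to 7.40) and 5.08 with HuR siRNA (4.66 to 5.50). No intervals overlapped, with control siRNA highest and PDL 55 lowest. Against PDL 15 the ratio was -1.46 at PDL 55 (-1.69 to -1.22) and 1.48 with control siRNA (0.70 to 2.06). Against control siRNA it was -1.79 with AUF1 siRNA (-2.33 to -1.05) and -2.29 with HuR siRNA (-2.84 to -1.53). With PDL 15 as the reference, those 2 libraries were at -0.32 and -0.83. With FPKM weighted by transcript length, which follows fragments, 3 of these ratios fell under the 2-fold line: 0.24 for control siRNA against PDL 15, and -0.44 with AUF1 siRNA and -0.99 with HuR siRNA against control siRNA.

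These ZFP36L2 differences also rest on assembled blocks. At PDL 15 a block of 3350 nt lying almost wholly in the gene held 83.9% of its FPKM, and with control siRNA blocks of 1529 and 278 nt held 34.7% and 46.3%. The gene's only annotated transcript, ENST00000282388, had 1.66 at PDL 15, 2.30 at PDL 55, 4.23 with control siRNA, 6.92 with AUF1 siRNA and 5.08 with HuR siRNA. On annotated transcripts alone the ratio was 0.62 for PDL 55 and 0.42 for AUF1 siRNA, both turned in direction, and -0.08 for HuR siRNA. Transcripts of the neighbouring gene THADA span the ZFP36L2 locus in every library, and their part in these blocks was not tested.

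**Figure D2:**
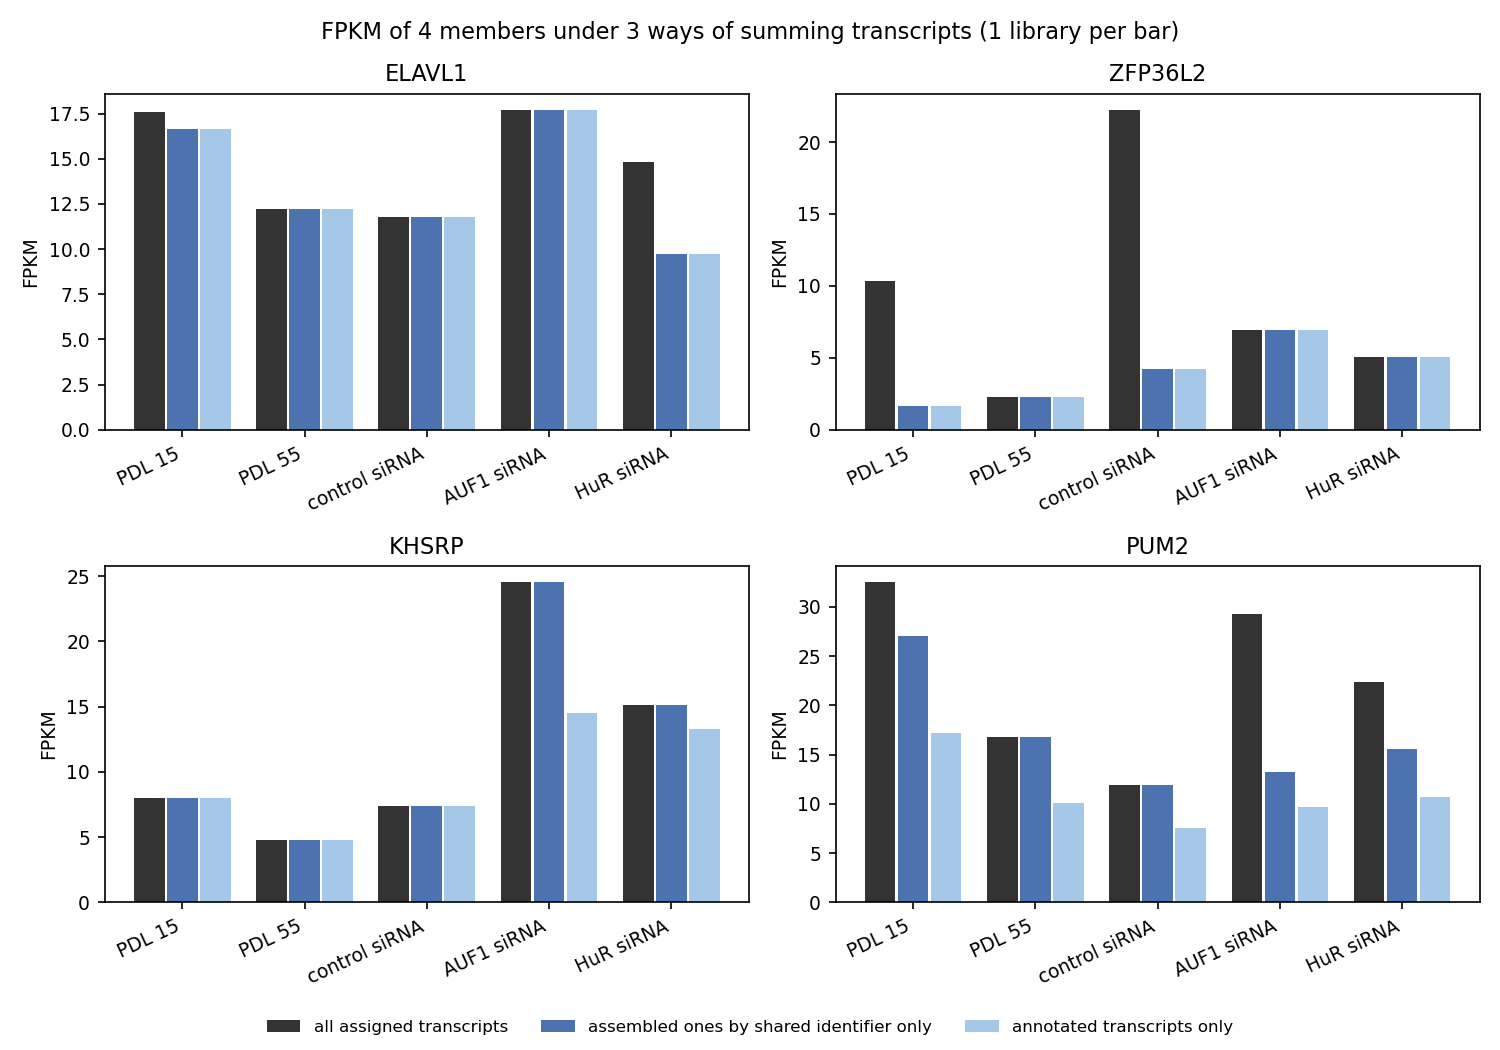
FPKM (y axis, from 0) of ELAVL1, ZFP36L2, KHSRP and PUM2 in the 5 libraries under 3 sums: all assigned transcripts (black), assembled transcripts by shared identifier only (blue) and annotated transcripts only (light blue). ELAVL1 with HuR siRNA falls from 14.8 to 9.72, and ZFP36L2 with control siRNA from 22.3 to 4.23.

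KHSRP (ENSG00000088247; hg19 chromosome 19, 6413121 to 6424822, minus strand) encodes a KH-domain protein that brings the exosome to AU-rich mRNAs. It had 8.01 at PDL 15 (7.41 to 8.61), 4.80 at PDL 55 (4.35 to 5.26), 7.42 with control siRNA (5.92 to 8.91), 24.6 with AUF1 siRNA (22.5 to 26.6) and 15.1 with HuR siRNA (13.9 to 16.3). The AUF1 and HuR siRNA libraries were above the other three with no overlap. The ratio against control siRNA was 1.37 for AUF1 siRNA (1.01 to 1.76) and 0.59 for HuR siRNA (0.24 to 0.97), and against PDL 15 it was 1.70 and 0.91.

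KHSRP kept that order on its annotated transcript ENST00000201886 alone, at smaller size: 14.5 with AUF1 siRNA, 13.3 with HuR siRNA and 7.42 with control siRNA. The AUF1 siRNA ratio was then 0.70, under the 2-fold line. That transcript was flagged LOWDATA in all libraries but control siRNA. Without LOWDATA transcripts the ratio to control siRNA was 0.16 with AUF1 siRNA and -1.94 with HuR siRNA, the latter turned in direction. That rule took the annotated transcript out of the AUF1 and HuR siRNA libraries but kept it in the control library. Assembled forms at 10.0 and 1.80 were thus set against 7.42 of the annotated one, so these ratios do not give the direction of KHSRP. In the control library an assembled row of no gene (1141 nt, FPKM 47.5) overlapped 18.7% of the KHSRP span, and its part in the low control value was not tested.

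Of the translational silencers, TIA1 (ENSG00000116001; hg19 chromosome 2, 70436576 to 70475792, minus strand), a stress granule protein, was listed at 0 at PDL 15, with control siRNA and with AUF1 siRNA. It had 12.6 at PDL 55 (10.7 to 14.6) and 21.9 with HuR siRNA (19.1 to 24.8). Both values came from 1 of its 20 annotated transcripts, ENST00000495774 (533 nt), flagged LOWDATA. A row named for C2orf42, ENST00000470096 (579 nt), has 36.4% of its bases in TIA1 exons and had 111 at PDL 15, 21.6 at PDL 55, 54.0 with control siRNA, 54.6 with AUF1 siRNA and 38.4 with HuR siRNA. The 2 libraries with a TIA1 value were those with the least of that row, so a 0 here does not show that TIA1 mRNA was absent.

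TIAL1 (TIAR, ENSG00000151923; hg19 chromosome 10, 121334199 to 121356541, minus strand) is the close relative of TIA1. It had 41.8 at PDL 15 (36.5 to 47.1), 42.0 at PDL 55 (36.1 to 47.9), 18.7 with control siRNA (13.2 to 24.2), 34.1 with AUF1 siRNA (29.8 to 38.4) and 33.7 with HuR siRNA (31.6 to 35.8). Control siRNA stood below the other 4 libraries with no overlap. The ratio to PDL 15 was -0.68 with control siRNA and 0.33 at PDL 55. The ratio to control siRNA was 0.60 with AUF1 siRNA and 0.47 with HuR siRNA.

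Against PDL 15, TIAL1 was at -0.09 with AUF1 siRNA and -0.23 with HuR siRNA, so its ratios in the siRNA comparisons depend on the shallow control library. Without an assembled block of 639 nt in that library, the control value was 13.6. The ratios were then -1.15 for control siRNA against PDL 15, 1.08 for AUF1 siRNA and 0.95 for HuR siRNA. Most of the TIAL1 FPKM lay in forms flagged LOWDATA, and without them the ratio of control siRNA to PDL 15 turned to 1.34. Weighted by transcript length, the AUF1 siRNA ratio was 0.05.

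CELF1 (ENSG00000149187; hg19 chromosome 11, 47487496 to 47587121, minus strand), which binds GU-rich elements and also acts in splicing, had 1.61 at PDL 15, 11.2 at PDL 55, 39.9 with control siRNA, 47.2 with AUF1 siRNA and 22.2 with HuR siRNA. The PDL 15 value came wholly from 1 row of 430 nt, ENST00000366360, while 15 rows failed there. That value is therefore unreliable, and no ratio is given. With control and AUF1 siRNA, 69.3% and 54.6% of the sum came from ENST00000526419 (476 nt), at 27.6 and 25.8, a form listed at 0 in the other libraries. Long assembled transcripts, a different one in each library and 4584 to 5195 nt in length, had 10.5 at PDL 55, 9.45 with control siRNA, 9.59 with AUF1 siRNA and 7.24 with HuR siRNA. The HuR siRNA value (6.74 to 7.74) was the lowest and overlapped none of the others. In that library, however, 53.8% of the sum came from the annotated form ENST00000310513 (2112 nt), at 12.0. This form had 11.2 with AUF1 siRNA and was listed at 0 in the other libraries. The long assembled transcripts alone thus do not give the order of CELF1 mRNA.

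PUM2 (ENSG00000055917; hg19 chromosome 2, 20448452 to 20551995, minus strand) had 32.5 at PDL 15 (29.8 to 35.3), 16.8 at PDL 55 (15.4 to 18.2), 11.9 with control siRNA (8.67 to 15.2), 29.3 with AUF1 siRNA (23.1 to 35.4) and 22.4 with HuR siRNA (19.5 to 25.3). PDL 15 and AUF1 siRNA were highest and overlapped, and control siRNA was lowest. To PDL 15 the ratio was -0.59 at PDL 55 and -0.93 with control siRNA. To control siRNA it was 0.99 with AUF1 siRNA and 0.50 with HuR siRNA. Unspliced blocks made up much of the AUF1 siRNA value: with shared identifiers only, PUM2 had 13.2 there and the ratio was -0.05, and weighted by transcript length it was 0.16. They entered other libraries too: with shared identifiers only, PUM2 had 15.5 with HuR siRNA and 27.1 at PDL 15. HuR siRNA (14.3 to 16.7) then stood above AUF1 siRNA (11.9 to 14.6), with overlap.

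**Figure D3:**
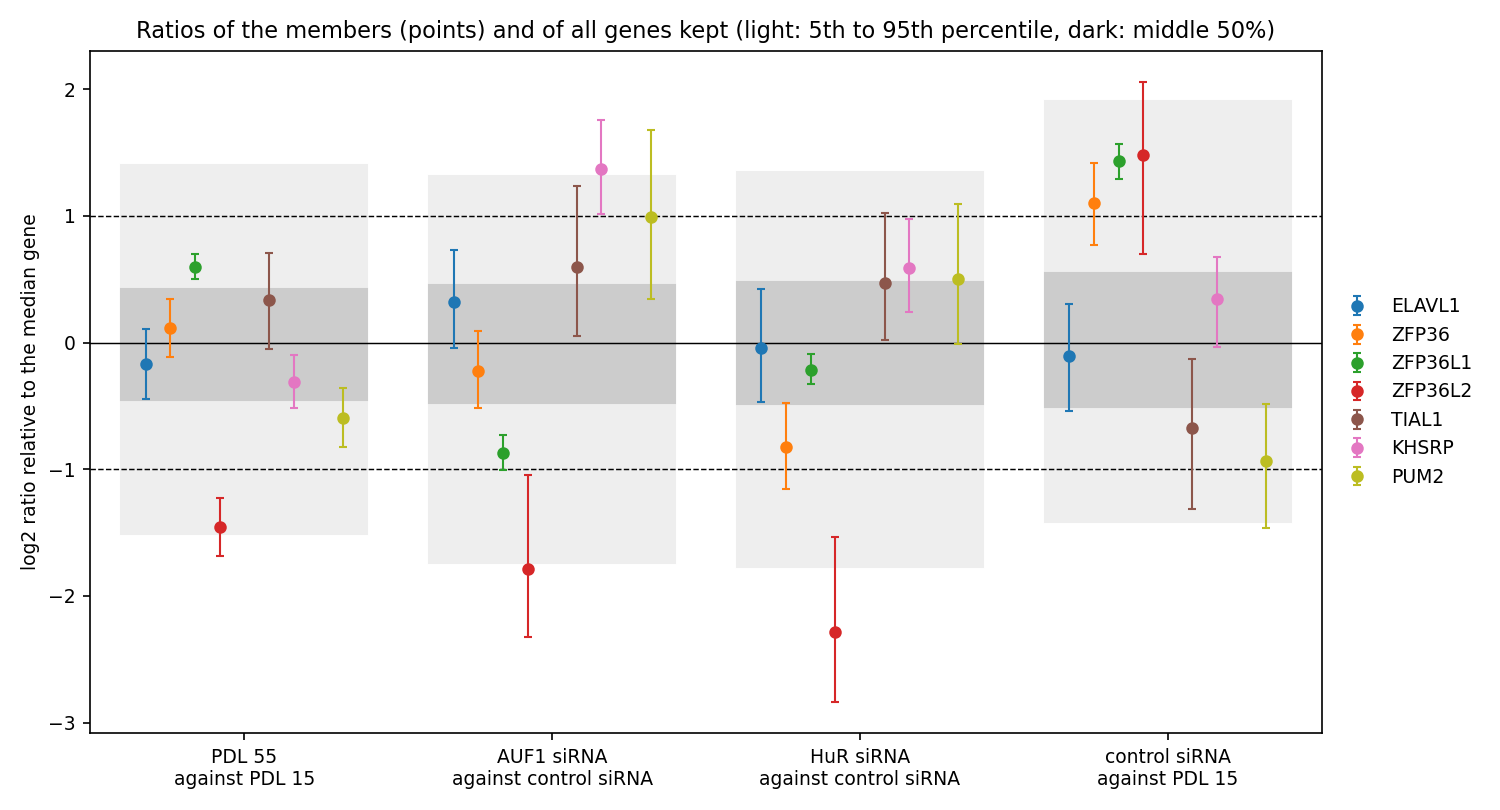
log2 ratio relative to the median gene (y axis) of the 7 genes above 0 in the libraries compared, in 4 comparisons; bars on the points come from the deposited bounds, light grey is the 5th to 95th percentile of all genes kept and dark grey the middle 50%. ZFP36L2 was at -2.29 with HuR siRNA, and the 3 ZFP36 family members were above 1 for control siRNA against PDL 15.

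Of the 9 genes, 8 could be counted. At PDL 55 against PDL 15, 2 of the 8 kept were at least 2-fold apart, TIA1 higher from 0 and ZFP36L2 lower, beside 18.9% of all genes kept. AUF1 siRNA against control siRNA also gave 2, KHSRP higher and ZFP36L2 lower, beside 20.2%. HuR siRNA against control siRNA gave 2, TIA1 higher from 0 and ZFP36L2 lower, beside 21.1%. Control siRNA against PDL 15 gave 3, all of the ZFP36 family and all higher, beside 23.7%. Among the 7 genes above 0 in both libraries, the counts were 1, 2, 1 and 3 in that order, beside 17.1%, 17.4%, 18.4% and 21.2%. Among the 8 kept, each share is above that of all genes, but by about 1 gene of 8 or less. Among the 7 above 0 in both, the share was below that of all genes at PDL 55 and with HuR siRNA. It was above in the other comparisons. With 1 library per group the differences were not tested.

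Intervals that did not overlap were common among all genes. They were seen for 6 of 8 genes at PDL 55 (54.4% of all genes), 6 with AUF1 siRNA (38.6%), 7 with HuR siRNA (43.4%) and 6 for control siRNA against PDL 15 (49.5%). All genes kept include those of low FPKM, and no share at like FPKM was taken. Whether the higher shares are a trait of these genes was therefore not tested. TIA1, listed at 0 in the reference library, is counted at PDL 55 and with HuR siRNA. The median ratio of the 7 genes above 0 was -0.17, 0.32, -0.04 and 0.34 in that order, where the median of all genes is 0 by construction. With PDL 15 as the reference, 1 of 8 was 2-fold apart with AUF1 siRNA (KHSRP, background 17.3%) and 2 with HuR siRNA (ZFP36L1 and TIA1, background 16.0%).

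The 5 genes whose levels ran most like those of ELAVL1, by root mean square difference of centred log2 values over the 5 libraries, were CNDP2, ZDHHC20, ARHGAP35, NEK1 and PRRC2C. Their differences were 0.03 to 0.05, against a median of 0.43 over the 7122 protein-coding genes compared, whose mean FPKM was 5 or more. The 5 genes were picked as the smallest differences over only 5 libraries, so their distance from that median follows from the choice. CNDP2 had 13.9 at PDL 15, 9.99 at PDL 55, 9.67 with control siRNA, 14.1 with AUF1 siRNA and 12.4 with HuR siRNA. Within the list of 9, PUM2 was nearest at 0.28, with 1321 genes closer. This order includes the unspliced ELAVL1 block with HuR siRNA described above.

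Among 32 other AU-rich and U-rich element binders, 24 were kept. At PDL 55 against PDL 15, 1 was higher and 4 lower, where 8.87% and 10.0% of all genes were. The lower ones included HNRNPA1, a splicing and export factor, at 46.3 against 160.0 (ratio -1.44), and HNRNPD at 42.3 against 119 (-1.15). PCBP1 was listed at 0. With AUF1 siRNA 1 was higher and 3 lower (all genes: 9.04% and 11.2%), and with HuR siRNA 1 was higher and 0 lower (9.60% and 11.5%). The higher one in both was IGF2BP3, an mRNA-stabilising protein, at 134 and 116 against 27.9 with control siRNA. PDL 15 had 94.2, so control siRNA was the low library. Weighted by transcript length, the IGF2BP3 ratio with AUF1 siRNA was -0.0076.

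Of 32 deadenylases, exosome subunits and other decay factors, 25 were kept. They gave 0 higher and 1 lower at PDL 55 (all genes: 8.87% and 10.0%), 0 and 2 with AUF1 siRNA (9.04% and 11.2%), and 4 and 3 with HuR siRNA (9.60% and 11.5%). With HuR siRNA the exosome subunit EXOSC9 had 20.4 against 4.57 with control siRNA (1.59), and the exosome nuclease DIS3 had 58.9 against 18.9 (1.24). Weighted by transcript length both were under the 2-fold line, at 0.77 and 0.64. BTG2, which stimulates deadenylation, had 19.1 against 5.81 (1.21), and 0.95 on annotated transcripts alone. CNOT2, a subunit of the deadenylase complex, had 14.4 against 34.0 (-1.53), but 0.49 on annotated transcripts alone. DIS3 was at 61.4 at PDL 15, so it too was low mainly in the control library. With PDL 15 as the reference, HuR siRNA gave 2 higher and 0 lower (all genes: 8.28% and 7.70%) and AUF1 siRNA gave 0 and 0 (8.79% and 8.55%).

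Of 28 partners, kinases and shuttling factors of HuR and tristetraprolin, 24 were kept: 1 was higher and 3 lower at PDL 55 (all genes: 8.87% and 10.0%), 3 and 3 with AUF1 siRNA (9.04% and 11.2%), and 2 and 3 with HuR siRNA (9.60% and 11.5%). DUSP1, the phosphatase that shuts off p38, had 15.1 at PDL 55 against 7.24 at PDL 15 (1.29, or 0.96 as deposited), and PRKCA, a kinase that phosphorylates HuR, had 14.8 against 46.9 (-1.28). XPO1, the export receptor, had 36.4 with HuR siRNA, 35.9 with AUF1 siRNA and 11.8 with control siRNA, but 42.6 at PDL 15. Weighted by transcript length, its ratios to control siRNA turned, to -0.35 with HuR siRNA and -0.094 with AUF1 siRNA. The HuR ligand ANP32A had 88.5 with control siRNA, 50.4 with AUF1 siRNA, 51.1 with HuR siRNA and 57.2 at PDL 15.

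Of 38 mRNAs known for AU-rich elements or HuR binding, 28 were kept. At PDL 55, 5 were higher and 5 lower (all genes: 8.87% and 10.0%), with AUF1 siRNA 3 and 3 (9.04% and 11.2%), and with HuR siRNA 3 and 3 (9.60% and 11.5%). PTMA, the prothymosin mRNA, had 292 at PDL 15, 60.5 at PDL 55, 360.0 with control siRNA, 211 with AUF1 siRNA and 128 with HuR siRNA. It was thus lower than either reference with HuR siRNA (ratio -1.84 against control siRNA) and lower still at PDL 55. CCND2, a D-type cyclin, had 121 at PDL 55 and 1.40 at PDL 15 (ratio 5.99).

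CDKN1A, the p21 inhibitor of the cell cycle, had 392 with AUF1 siRNA against 74.2 with control siRNA (2.15), and 145 at PDL 15. With HuR siRNA, VEGFA, an angiogenic growth factor, had 39.4 against 13.2 with control siRNA (6.38 to 20.0), a ratio of 1.16. XIAP, an inhibitor of apoptosis, had 7.18 against 15.6 (10.1 to 21.2), a ratio of -1.37. Both fell under the 2-fold line under an alternative: VEGFA to 0.88 weighted by transcript length, and XIAP to -0.83 without LOWDATA transcripts. With PDL 15 as the reference the list gave 6 higher and 1 lower with AUF1 siRNA (all genes: 8.79% and 8.55%), and 4 and 5 with HuR siRNA (8.28% and 7.70%). Of 16 genes of dividing cells, all kept, 14 were lower and 0 higher at PDL 55 (all genes: 10.0% and 8.87%), beside which the lower ratios of PTMA and HNRNPA1 at PDL 55 stand. The part of slower division in those ratios was not tested. With HuR siRNA 1 of the 16 was lower and 0 higher (all genes: 11.5% and 9.60%). With AUF1 siRNA 1 was lower and 3 higher (11.2% and 9.04%). The lower gene in both was KIF11, which had 28.2 with control siRNA and 7.95 at PDL 15, so control siRNA was the high library.

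**Figure D4:**
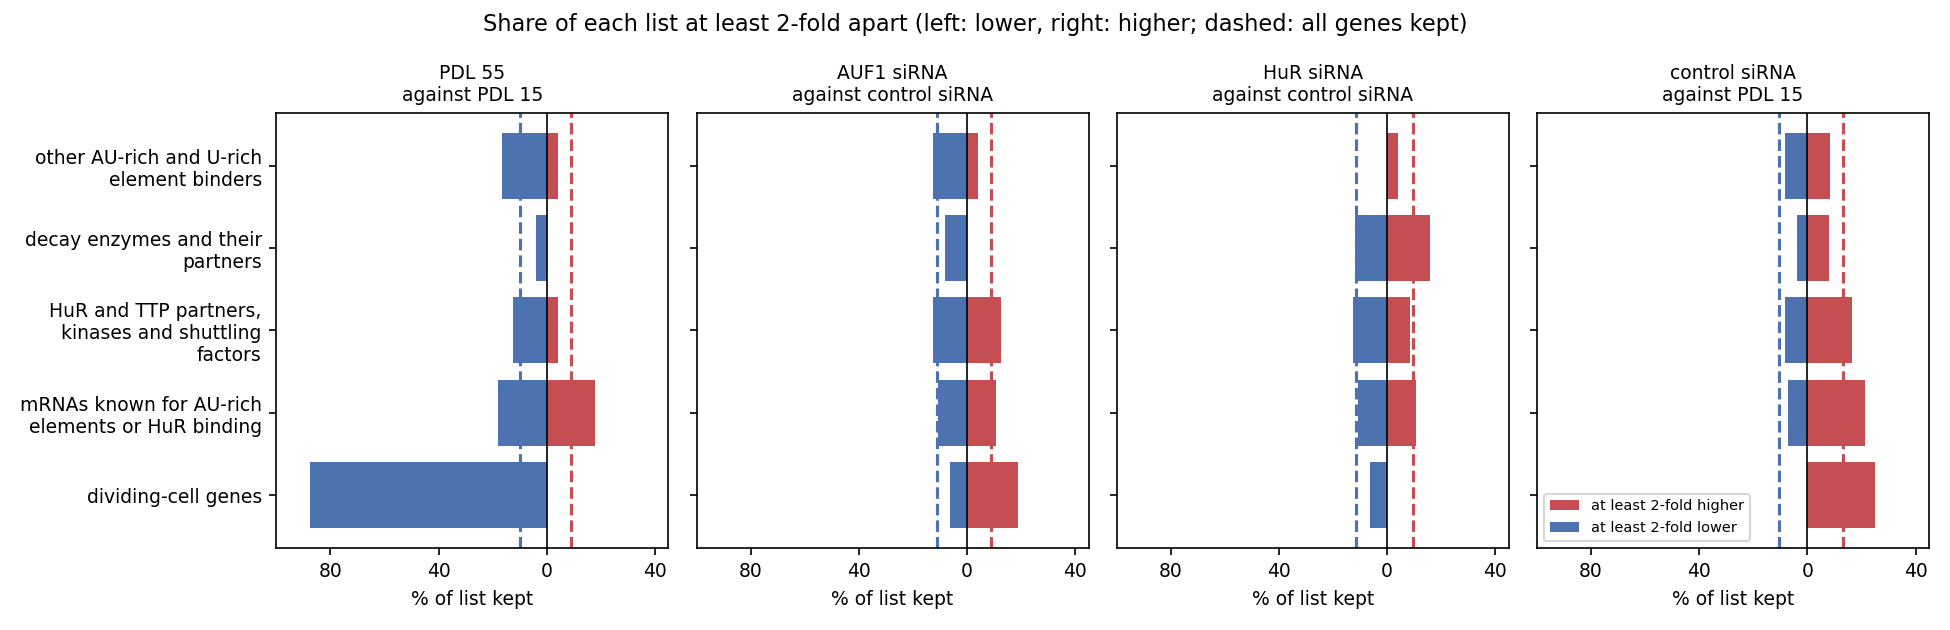
Share of each list kept (x axis, percent) that was at least 2-fold lower (blue, left of 0) or higher (red, right of 0) relative to the median gene in 4 comparisons; dashed lines are the shares of all genes kept. Of the genes of dividing cells, 14 of 16 were lower at PDL 55.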

How the data were processed

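Total RNA of 5 WI-38 libraries, 1 per group, was amplified by single-primer isothermal amplification of RNA with and without polyA tails and sequenced on an Illumina GA-II, per the labels' protocols; no strand is stated. The authors deposited a table per library with FPKM, its 95% bounds and coverage for each annotated and assembled transcript, per the file headers. TopHat2 2.0.6, Cufflinks 2.0.2, Cuffdiff and hg19 are named in the submitters' processing notes. Read counts are not in these tables, so depth was compared through the coverage signal per FPKM, as deposited.

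From these, FPKM was summed per gene over annotated and assembled transcripts. A transcript was assigned by the identifiers in the tables, GENCODE 29, a shared gene identifier, or position (at least 50% of its span in 1 gene and under 10% in any other), and 98.7% of 160485 annotated transcripts had a gene. The sum by identifier or position is the one planned. For a time during the work the sum without position was used in its place, after the ELAVL1 values had been seen. The planned sum was then restored, and both are printed where they differ. Genes with a failed estimate, small RNA genes and genes with a mean FPKM under 1 were left out. Ratios used a pseudocount of 1 and were centred on the median gene, and a call is a 2-fold difference. With 1 library per group there is no test. The calculation was tested on simulated data.

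The named genes are all 9 members, HNRNPD, up to 3 higher and 3 lower genes per list and comparison that were 2-fold apart without overlap of intervals, and the 5 genes most like ELAVL1. Of the listed genes that qualify, only examples are printed. One listed gene is not reported here. PCBP1 and the libraries listed at 0 were added after their values were seen. The members and lists were chosen with earlier results of these data known. Motifs were searched in GENCODE 29 transcripts (GRCh38), whose coordinates were not mixed with those of hg19. Python 3.11.15, pandas 2.3.3 and NumPy 2.4.6 were used. The alternatives tried were the pseudocount, the filter on low values, which transcripts enter the sum (short assembled ones left out among them), the flag LOWDATA, the centring, fragment mass (FPKM weighted by transcript length), and the reference library.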

Additional observations from a re-analysis of the deposited data

Results flagged for a closer look

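ZFP36 in the HuR siRNA library is flagged because an assembled transcript that no gene was assigned covered its whole span with an FPKM of 8.47, while the control siRNA library had no such row. It was not used in any sum. Its source was not tested.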

How the results depend on the processing

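Each group is 1 library, so neither a left-out replicate nor a test is possible. No paired analysis was possible because each group holds 1 library. The ELAVL1 ratio for HuR against control siRNA moved from -0.04 to -0.55 on annotated transcripts only and to -0.56 with shared identifiers only. ZFP36L2 turned direction on annotated transcripts only (0.62 at PDL 55, 0.42 with AUF1 siRNA) and with shared identifiers only (0.61 and 0.42). Over the other 27 member ratios, 243 of 312 alternatives stayed within the deposited bounds, 65 lay outside and 4 turned a called value. Counting uncalled ones, 17 of the 27 changed sign under at least 1 alternative, reference swaps included.

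The count of members 2-fold apart at PDL 55 went from 2 to 1 on annotated transcripts only, with shared identifiers only, and without genes at 0. With AUF1 siRNA it went from 2 to 1 with PDL 15 as the reference, on annotated transcripts only, and by fragment mass. With HuR siRNA it went from 2 to 1 with shared identifiers only, by fragment mass and without genes at 0, and to 4 without LOWDATA transcripts. For control siRNA against PDL 15 it went from 3 to 5 without LOWDATA transcripts, to 4 on annotated transcripts only and with shared identifiers only, and to 2 by fragment mass. The count also rose from 2 to 3 at PDL 55 with control siRNA as the reference, and to 3 with AUF1 siRNA with no filter, a pseudocount of 0.1, no centring or no LOWDATA transcripts. As deposited, without centring, the count for control siRNA against PDL 15 stayed 3, but the genes were then ZFP36L2, TIAL1 and PUM2.

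At a mean FPKM of at least 5, genes 2-fold apart numbered 1690 at PDL 55 (from 2626), 1564 with AUF1 siRNA (from 2810), 1611 with HuR siRNA (from 2939) and 1885 for control siRNA against PDL 15 (from 3294). With no filter the last 2 rose to 4547 and 5234. With control siRNA as the reference, PDL 55 gave 4079. Of 44 listed-gene ratios, 27 fell under the 2-fold line under at least 1 alternative and 6 turned. On annotated transcripts CNOT2 was at 0.42 with AUF1 and 0.49 with HuR siRNA, and LIF at -1.48 with HuR siRNA. By fragment mass XPO1 was at -0.094 with AUF1 and -0.35 with HuR siRNA, and IGF2BP3 with AUF1 siRNA at -0.0076. The causes were not tested. The identifier-only sum and the one without genes at 0 were chosen after seeing the data. The shallow control library limits every ratio against it.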
